A study of Mus musculus with 30 samples.

Results

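Fragments of nuclear 18S rRNA were taken from small RNA libraries of mouse cortex as every sequence that matched the 18S sequence base for base over its whole length. The 18S sequence used was that of Rn18s-rs5 on the plus strand of GRCm38, chr17:39846353-39848201, a stretch of 1849 nt built from the reverse complement of the GENCODE vM21 rRNA transcript CT010467.1 and extended downstream by the plus-strand transcript Gm42418. RefSeq lists Rn18s-rs5 as a pseudogene, and 18S rRNA is made from many ribosomal DNA copies, so a read of this kind cannot be assigned to one locus. Of 175305168 rows in all 30 libraries, 545615 lay within 18S and held 42539 distinct sequences, out of 56420 fragments of 15 to 45 nt that 1849 nt can give. PANDORA-seq held 41379 of them, traditional-seq held 21272, and 20112 were found with both protocols. No fragment occurred at more than 1 place in 18S, and 224 of the distinct sequences also occurred in another GENCODE transcript. Reads of the opposite strand were near 0: 0.0803 ± 0.0418 RPM (per-million read count, SD, n = 16) in PANDORA-seq and 0.0272 ± 0.0454 RPM (n = 14) in traditional-seq.

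18S rRNA is the RNA core of the small ribosomal subunit, which holds the mRNA and the decoding centre. It is cut out of a long precursor in which it lies ahead of internal transcribed spacer 1, 5.8S and 28S rRNA, and it carries many 2′-O-methyl groups, pseudouridines and a few base methylations. Its small fragments belong to the rRNA-derived small RNAs (rsRNAs). Cleavage of RNA can leave a phosphate at the 3′ end or a hydroxyl at the 5′ end, neither of which standard adapter ligation accepts, and methyl groups on the pairing face of a base can stop reverse transcription.

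The study compared hemizygous 5xFAD mice (AD mice) with wild-type (WT) littermates of both sexes on a C57BL/6J background at 6 months of age. 5xFAD mice carry transgenes with familial Alzheimer's disease mutations under the neuronal Thy1 promoter, and the cortex sampled is a mix of cells. In PANDORA-seq, RNA of 15 to 50 nt cut from a gel was treated with T4 polynucleotide kinase, which converts such ends, and with AlkB, which removes some base methylations, in 8 WT and 8 AD libraries. In traditional-seq, 7 WT and 7 AD libraries were made without these enzymes. All libraries shared the age, the gel range and the library kit. Labels do not say whether libraries of the 2 protocols came from the same mice. Depth was 54926347 to 105876141 reads in PANDORA-seq and 9370669 to 17053412 reads in traditional-seq, and the longest reads were 45 nt and 42 nt. Levels are RPM of all reads of a library. The neural miRNAs miR-9-5p, miR-128-3p and miR-132-3p were present in all libraries, at 11611, 26706 and 157 RPM in traditional-seq and at 63.6, 1013 and 7.65 RPM in PANDORA-seq. Of the other markers measured, erythroid miR-451a had 3.26 RPM in traditional-seq, the oligodendrocyte, myeloid and remaining erythroid miRNAs were under 1 RPM, and heart miR-208a-3p was at 0.

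The fragments at the strongest 5′ ends are printed because the results on position, ends and genotype turn on them. Capitals mark the fragment, and lower case marks 10 nt of the 18S sequence on either side. Positions count from the first base of 18S, and the lists hold exact matches.

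In PANDORA-seq, the most abundant fragments of 15 to 40 nt at the 5 strongest 5′ ends were:
nt 1453 to 1491, chr17:39847805-39847843: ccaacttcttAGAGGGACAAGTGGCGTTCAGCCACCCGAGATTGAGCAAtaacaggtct
nt 1513 to 1536, chr17:39847865-39847888: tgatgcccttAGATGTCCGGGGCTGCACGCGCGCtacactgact
nt 1351 to 1383, chr17:39847703-39847735: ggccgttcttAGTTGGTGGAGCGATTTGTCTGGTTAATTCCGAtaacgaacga
nt 111 to 147, chr17:39846463-39846499: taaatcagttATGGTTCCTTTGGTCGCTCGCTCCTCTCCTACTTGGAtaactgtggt
nt 1385 to 1424, chr17:39847737-39847776: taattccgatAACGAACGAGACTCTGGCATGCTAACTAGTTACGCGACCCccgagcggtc

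In PANDORA-seq, the most abundant fragments of 43 to 45 nt at the 5 strongest 5′ ends were:
nt 1514 to 1557, chr17:39847866-39847909: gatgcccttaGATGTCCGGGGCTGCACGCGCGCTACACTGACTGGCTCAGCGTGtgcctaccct
nt 951 to 995, chr17:39847303-39847347: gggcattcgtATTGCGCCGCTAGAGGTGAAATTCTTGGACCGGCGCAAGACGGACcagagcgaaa
nt 1201 to 1245, chr17:39847553-39847597: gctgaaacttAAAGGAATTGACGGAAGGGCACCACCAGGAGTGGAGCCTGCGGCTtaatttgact
nt 1260 to 1303, chr17:39847612-39847655: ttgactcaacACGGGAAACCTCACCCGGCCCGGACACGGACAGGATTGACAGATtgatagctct
nt 1368 to 1410, chr17:39847720-39847762: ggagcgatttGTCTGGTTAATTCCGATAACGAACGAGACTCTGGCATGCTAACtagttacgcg

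In traditional-seq, the most abundant fragments of 15 to 40 nt at the 5 strongest 5′ ends were:
nt 1764 to 1792, chr17:39848116-39848144: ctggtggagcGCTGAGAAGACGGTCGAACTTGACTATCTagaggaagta
nt 297 to 316, chr17:39846649-39846668: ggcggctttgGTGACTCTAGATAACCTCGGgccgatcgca
nt 1390 to 1413, chr17:39847742-39847765: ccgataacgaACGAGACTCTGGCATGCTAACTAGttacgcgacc
nt 986 to 1010, chr17:39847338-39847362: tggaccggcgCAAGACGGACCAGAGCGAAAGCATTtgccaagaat
nt 1359 to 1384, chr17:39847711-39847736: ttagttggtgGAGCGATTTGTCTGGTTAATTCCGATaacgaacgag

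All 5 short PANDORA-seq fragments began with A behind a T. In 3 of them (nt 1453, 1351 and 111) an A at the 3′ end was followed by T. None of the 5 fragments named in traditional-seq began behind a T. The first long fragment of PANDORA-seq starts 1 nt after the short fragment at nt 1513 and reaches 21 nt further.

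The 18S template itself differed from the RNA at a few bases, which limits an exact match. Among reads of at least 25 nt with at most 1 mismatch, 7 positions carried another base in over 90% of PANDORA-seq reads: C180G, T1051G, T1074C, A1083G, A1106G, C1666T and T1758C, each written as template base, position and read base. Exact matching leaves out all reads that carry them. Adding reads with these bases raised 18S by 7245 ± 6954 RPM (SD, n = 16) in PANDORA-seq, or 13.95% of the enlarged total, and by 893 ± 680 RPM (n = 14) in traditional-seq, or 8.30%. A fragment that crosses nt 1051 was the most abundant short 18S fragment of PANDORA-seq once these reads were added. It is shown with the substituted base in capitals (T1051G), at chr17:39847382-39847419:
nt 1030 to 1067: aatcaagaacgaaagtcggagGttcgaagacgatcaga
Reads of 15 to 40 nt that start at nt 1030 then had a mean of 3286 ± 6716 RPM (n = 16), against 0.847 RPM by exact match. They ranged from 198 to 6185 RPM in WT and from 474 to 27700 RPM in AD mice, the highest in AD replicate 7, and the genotype difference did not pass the test (log2 difference 0.90, exact permutation p = 0.33). Without AD replicate 7 the mean was 1658 ± 1706 RPM (n = 15) and the log2 difference 0.34 (exact permutation p = 0.639). Without WT replicate 1 the WT mean was 1038 RPM in place of 1681 RPM. Values below are exact matches unless stated otherwise. By exact match, stretches around some of these bases were hardly spanned, at nt 173 to 187, 1064 to 1091, 1097 to 1113 and 1658 to 1673. Close to such a base the matching rule fixes this, since a spanning read needs the template base. Of the reads with at most 1 mismatch described above, 510487 covered nt 180 in PANDORA-seq, 157678 nt 1106 and 29090 nt 1666. At nt 1074 and 1083 they numbered 2142 and 2796. In these stretches, exact-match PANDORA-seq reads reaching 7 nt past a position on both sides had under 0.5 RPM. The same held for the 12 nt ending at nt 215 and the 12 nt ending at nt 1752, which hold none of these bases. It also held for positions near the ends of 18S. Traditional-seq had gaps that overlap these stretches. Only substituted bases were looked for. Bases inserted or missing in the template, which would shift positions, were not tested.

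At 4 further positions, T1255, C1822, G7 and G334, more than 5% of PANDORA-seq reads carried another base alongside the template base. Another base than T at nt 1255, mostly T1255C, was found in 37.3 ± 7.61% of covering PANDORA-seq reads (SD, n = 16), from 19.7% to 50.1% across libraries, with means of 34.9% in WT and 39.7% in AD mice. Another base than C at nt 1822, mostly C1822T, was found in 10.9 ± 1.67%. At nt 7 another base than G, mostly G7T, was found in 9.88 ± 5.09% (3.79% to 24.0%), and at nt 334, mostly G334C, in 6.52 ± 2.37% (2.29% to 10.1%). At the median of 1743 positions measured in PANDORA-seq, 0.246% of reads carried a mismatch. These shares are given without a test.

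18S fragments were more abundant with PANDORA-seq than with traditional-seq. Over lengths that both protocols hold, 15 to 40 nt, PANDORA-seq libraries ranged from 17371 to 61023 RPM with a median of 27827 RPM, and traditional-seq libraries from 1297 to 19312 RPM with a median of 7610 RPM. Of 16 PANDORA-seq libraries, 14 lay above every traditional-seq library. Means were 30670 ± 12031 RPM (SD, n = 16) and 9305 ± 6608 RPM (n = 14), a 3.296-fold difference (log2 difference 2.11, permutation test with 100000 resamples, two-sided, p = 1e-05, the smallest it can give, adjusted p = 4e-05 over 4 comparisons). All lengths together, 18S made up 2.15% to 7.57% of PANDORA-seq reads and 0.130% to 1.94% of traditional-seq reads. For comparison, 5S rRNA fragments of 15 to 40 nt had means of 18175 and 1472 RPM, and those of mitochondrial 12S and 16S rRNA had 1743 and 2798 RPM in PANDORA-seq and 368 and 2286 RPM in traditional-seq. Without AD replicate 7 the PANDORA-seq means of 12S and 16S were 1102 and 2157 RPM (n = 15).

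The spread between libraries of 1 group was wide. In traditional-seq, 18S of 15 to 40 nt ran from 1297 RPM (WT replicate 7) to 18741 RPM (WT replicate 6) among WT mice alone. Short 18S fragments were longer in PANDORA-seq, with a mean length of 30.4 ± 0.936 nt (n = 16) against 24.97 ± 1.68 nt (n = 14). In traditional-seq the most frequent length over both genotypes was 29 nt, with 8.66% of 18S reads, while by mean RPM a shorter length was highest in AD mice. In PANDORA-seq the most frequent lengths over both genotypes were 45 nt (6.18%), the longest read held, and 44 nt (6.00%). The gel range reached 50 nt, so fragments over 45 nt were not seen. By mean RPM, the rank of 44 nt did not hold in AD mice alone.

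Short 18S fragments did not differ between genotypes by either protocol. In PANDORA-seq, 18S of 15 to 40 nt had 26519 ± 7402 RPM in WT (lowest 18276, median 25015, highest 42006) and 34820.2 ± 14697 RPM in AD mice (lowest 17371, median 30368, highest 61023). The groups overlapped, and AD replicates 6 and 7 lay above every WT library and AD replicate 5 below every one. The log2 difference, AD minus WT, was 0.33 (exact permutation test over libraries, two-sided, p = 0.209, adjusted p = 0.279). In traditional-seq, WT had 9451 ± 7011 RPM and AD mice 9159 ± 6737 RPM (n = 7 each, log2 difference -0.07, exact permutation p = 0.925, adjusted p = 0.925). Neither difference exceeded the spread between replicates. The genotype difference did not differ between protocols either (0.40 on the log2 scale, exact permutation p = 0.613).

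Long 18S fragments were lower in AD mice. Reads of 43 to 45 nt, which only PANDORA-seq holds, had 9457 ± 3475 RPM in WT (lowest 4533, median 10215, highest 15193) and 3791 ± 2262 RPM in AD mice (lowest 1667, median 3127, highest 8218). No WT library was as low as 6 of the AD libraries, while AD replicates 6 and 7 lay within the WT range. The WT mean was 2.49-fold the AD mean (log2 difference -1.42, exact permutation p = 0.002331, adjusted p = 0.00466). By single length, the WT mean exceeded the AD mean 1.93-fold at 43 nt, 3.53-fold at 44 nt and 2.18-fold at 45 nt, while at 41 nt and 42 nt it was 0.957-fold and 1.22-fold. Long fragments made up 23.4 ± 4.94% of 18S reads in WT and 8.73 ± 2.33% in AD mice.

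RNA of that length as a whole was lower in AD mice. Reads of 43 to 45 nt of any origin made up 15.5 ± 3.19% of WT libraries (11.2% to 21.5%) and 4.95 ± 2.90% of AD libraries (2.13% to 10.7%), with no overlap. As a share of the reads of its own length class, 18S was 6.10 ± 2.08% in WT and 8.497 ± 4.61% in AD mice. AD replicate 7 had the highest share, 19.1%, and medians were 5.69% in WT and 7.77% in AD mice. With this denominator the direction of the long class turned (log2 difference 0.40, exact permutation p = 0.205). The cause of the lower share of this length class was not tested, and bulk samples do not separate cell number from RNA per cell.

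**Figure D1:**
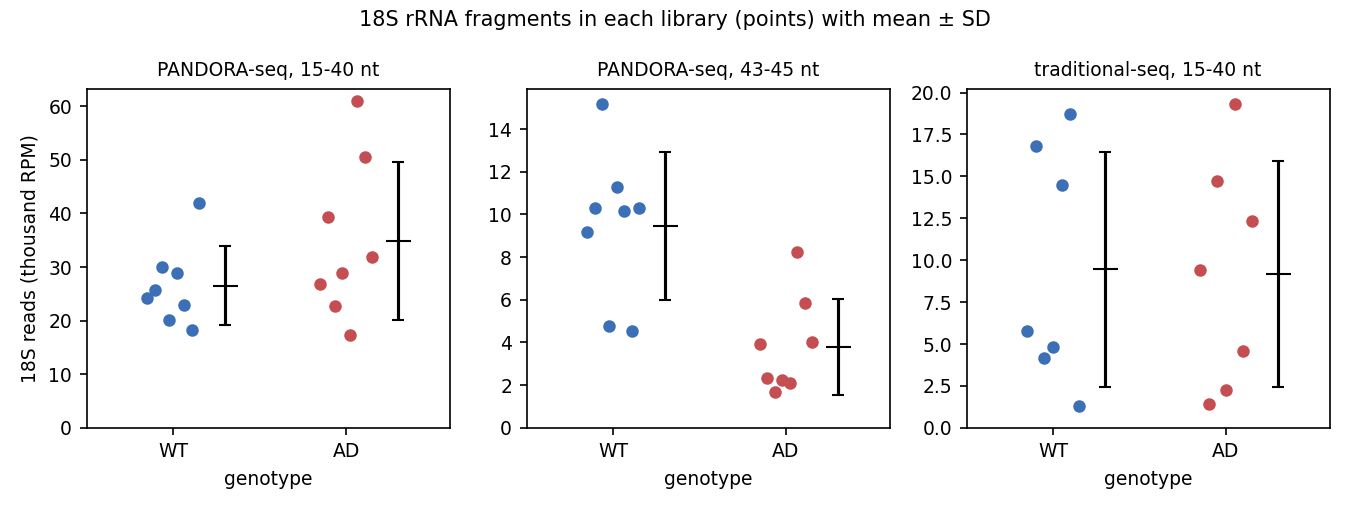
18S RPM divided by 1000 (vertical axis) per library, as points with the group mean ± SD, for WT and AD mice by protocol and length class. AD mice lie below WT at 43 to 45 nt (3791 against 9457 RPM) and overlap WT at 15 to 40 nt in both protocols.

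**Figure D2:**
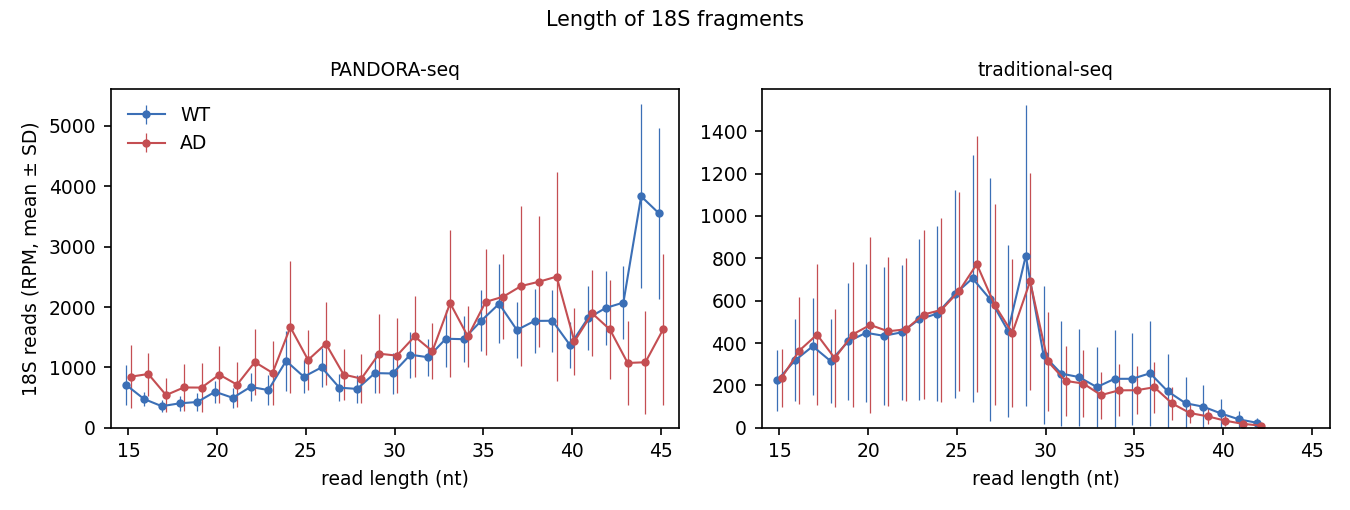
Mean 18S RPM at each read length in nt, with SD over libraries, for WT and AD mice in PANDORA-seq and traditional-seq. WT exceeds AD mice at 43 to 45 nt, most at 44 nt (3832 against 1086 RPM), and in traditional-seq the mean is highest at 29 nt in WT (812 RPM) and at 26 nt in AD mice (772 RPM).

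Reads came from nearly all of 18S, but unevenly and at different places in each protocol. Exact-match reads covered 99.4% to 100% of positions per PANDORA-seq library and 97.5% to 99.8% per traditional-seq library. 18S was divided into 19 windows of 100 nt by the 5′ end of a read (the last one shorter), and the share of 18S reads of 15 to 40 nt differed between protocols in 18 of them (permutation test with 100000 resamples, Benjamini-Hochberg over 19 windows). In the 3′ terminal part the order of the protocols turned once. At nt 1601 to 1700 PANDORA-seq had 4.07 ± 1.54% and traditional-seq 0.763 ± 0.143%. At nt 1701 to 1800 PANDORA-seq had 1.53 ± 0.394% and traditional-seq 17.8 ± 5.27%. With reads that carry the substituted bases added, the shares at nt 1701 to 1800, which holds 1 of these bases, were 5.06 ± 1.41% and 20.7 ± 5.05%. At nt 1801 to 1849 PANDORA-seq had 0.0540 ± 0.0174% and traditional-seq 0.219 ± 0.136%. In these 3 windows no library of one protocol overlapped those of the other (adjusted p = 2.11e-05 each).

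PANDORA-seq was also higher at nt 1501 to 1600 (11.3% against 4.74%, adjusted p = 2.11e-05) and at nt 1401 to 1500 (10.3% against 4.39%, adjusted p = 5.18e-05). Traditional-seq was higher at nt 301 to 400 (6.67% against 2.41%, adjusted p = 2.11e-05). By exact match the window at nt 1301 to 1400 was the richest in both protocols, with 18.1 ± 2.52% and 19.5 ± 4.69%, and was the 1 window of 19 that did not differ (adjusted p = 0.309). The window at nt 1001 to 1100, which holds 3 of the 7 substituted bases, had 0.120% in PANDORA-seq and 0.776% in traditional-seq by exact match. With the substituted bases added the order of the protocols turned, to 10.2 ± 8.92% and 3.39 ± 1.11%. The window at nt 1301 to 1400 then had 15.2% and 17.9%, and in traditional-seq it was no longer the richest.

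**Figure D3:**
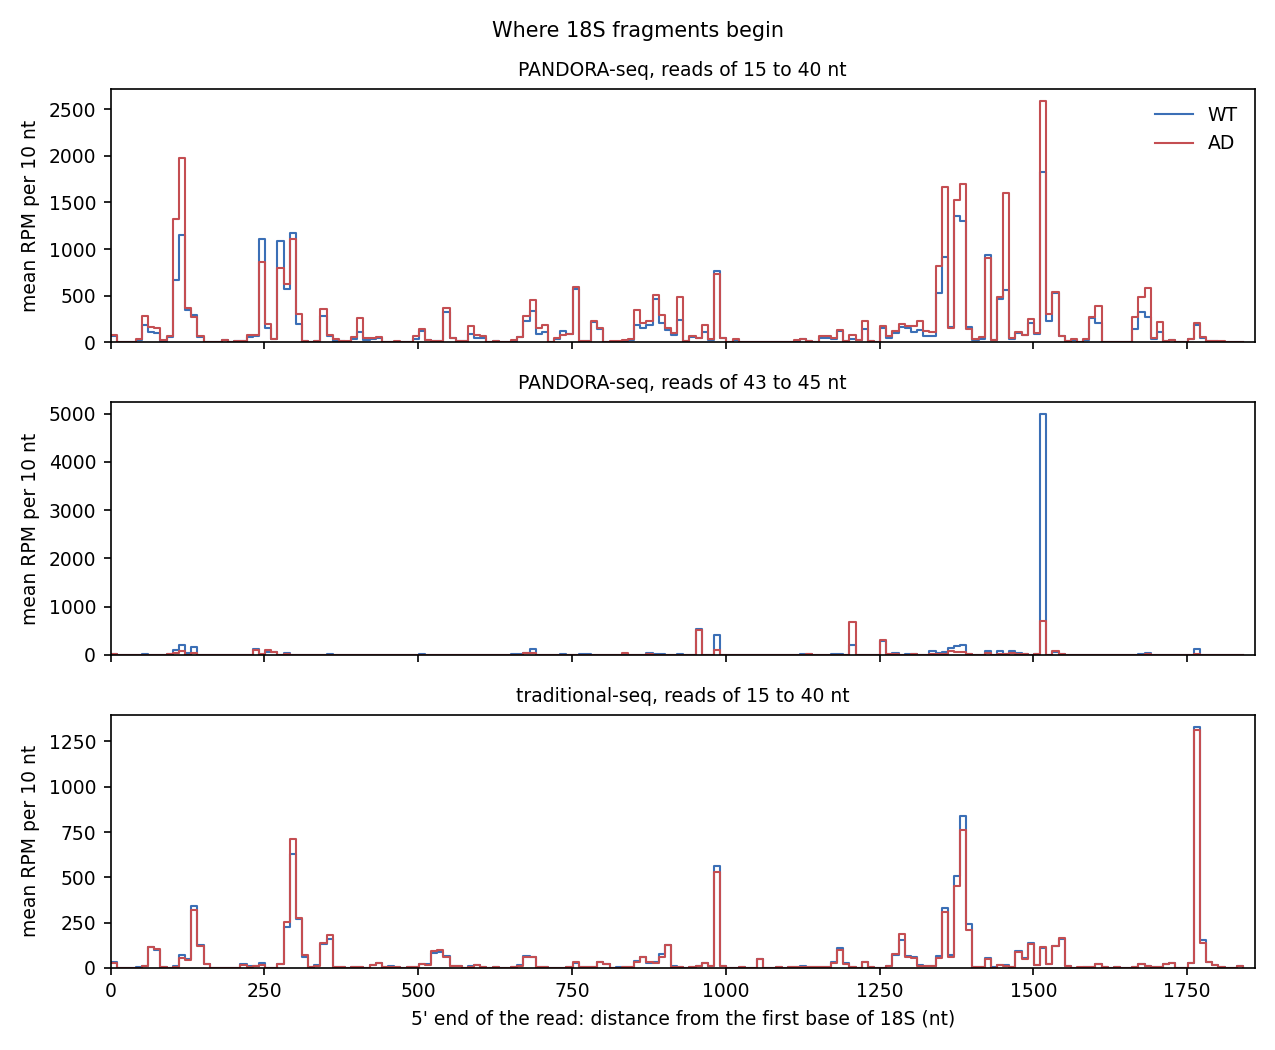
Mean RPM of 18S reads per 10 nt of 5′ end position (nt from the first base of 18S) by genotype, for short reads of both protocols and for PANDORA-seq reads of 43 to 45 nt. Short reads of PANDORA-seq are spread over several peaks, traditional-seq has its highest peak near nt 1764, and the long reads of WT mice peak near nt 1514, where WT lies above AD mice.

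The strongest site of traditional-seq was a common 3′ end. Reads starting at nt 1764 had 461 ± 387 RPM (n = 14), or 5.91% of short 18S reads, and 93.4% of them ended at nt 1792. Reads ending at nt 1792, whatever their start, had 1079 ± 949 RPM (194 to 3105 RPM), or 12.5 ± 6.09% of short 18S reads. In PANDORA-seq they had 0.650 ± 0.307 RPM (0.290 to 1.32 RPM), below every traditional-seq library. The 29-nt fragment from nt 1764 to nt 1792 had 431 ± 371 RPM in traditional-seq, from 81.0 to 1439 RPM, and 0.0386 ± 0.0380 RPM in PANDORA-seq, where 11 of 16 libraries held any read of it.

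PANDORA-seq was not empty next to this site. By exact match, its reads ending at nt 1787, 1791 and 1797 had 18.5, 14.5 and 14.04 RPM. Exact matching drops nearly all reads that cross nt 1758, in both protocols, and the values at nt 1792 share this limit. With T1758C added, the 44-nt fragment from nt 1748 to nt 1791 alone had 141 RPM in PANDORA-seq. In traditional-seq, reads ending at nt 1791 had 45.7 RPM and those ending at nt 1793 had 1.35 RPM, so the peak at nt 1792 was 1 nt wide. The base at nt 1792 is T and the next base is A. The sites were chosen by their abundance in the protocol concerned, so the protocol differences at single sites are given as values without a test.

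The remaining 5′ ends named in traditional-seq were at nt 297, 1390, 986 and 1359, with 267 ± 238, 168 ± 161, 115 ± 92.5 and 114 ± 88.8 RPM. At the same 5′ ends PANDORA-seq reads of 15 to 40 nt had 48.9, 142, 35.1 and 16.3 RPM. Traditional-seq had 2.74, 13.1, 0.664, 1.19 and 58.4 RPM at the 5 short 5′ ends named in PANDORA-seq. The 39-nt fragment from nt 1453 was in no traditional-seq library, and the 33-nt fragment from nt 1351 and the 37-nt fragment from nt 111 were each in 2 of 14 libraries.

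In PANDORA-seq, short reads began most often at nt 1453, 1513, 1351, 111 and 1385, with means of 935, 771, 770, 756 and 695 RPM. Each held 2.09% to 2.55% of short 18S reads, and the 10 strongest 5′ ends together held 21.9 ± 7.39%. Reads of 43 to 45 nt were far more concentrated, with 62.5 ± 10.3% at 10 5′ ends. In traditional-seq 10 5′ ends held 19.9 ± 5.12% and 10 3′ ends 32.9 ± 7.12%.

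One library weighed heavily on the short sites of PANDORA-seq. AD replicate 7 had 7107 RPM at nt 1453, where the other AD libraries had 219 to 1161 RPM and WT libraries 144 to 893 RPM. It was also the highest AD library at nt 1351 (3021 RPM), nt 111 (3689 RPM) and nt 1385 (3320 RPM), while AD replicate 6 was the highest at nt 1513 (2718 RPM). Without AD replicate 7 the AD mean at nt 1453 was 631 ± 370 RPM (n = 7) in place of 1441 ± 2315 RPM, and the 5 strongest sites became nt 1513, 1427, 1351, 243 and 1376, of which 2 are among the original 5. Leaving out AD replicate 6 kept 4 of the 5.

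AD replicate 7 also had the most 12S and 16S rRNA of all PANDORA-seq libraries (12157 and 18383 RPM, against medians of 1140 and 3413 RPM). Its part in the 18S values was not tested beyond leaving it out.

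Cut ends differed in sequence between protocols. In PANDORA-seq the base before the 5′ end of short 18S reads was a pyrimidine in 73.8 ± 4.93% of reads and the base after the 3′ end in 78.5 ± 3.18% (n = 16). In traditional-seq the shares were 48.5 ± 4.94% and 41.7 ± 3.49% (n = 14), and 48.08% of 18S bases are pyrimidines. The base T before the 5′ end was at 40.3 ± 10.9% in PANDORA-seq (29.5% to 77.2%) and at 19.5 ± 1.71% in traditional-seq (16.6% to 23.2%), without overlap (permutation test with 100000 resamples, adjusted p = 1.33e-05 over 16 comparisons). The first base was A in 40.1 ± 8.63% and 24.9 ± 2.57% of reads (adjusted p = 1.33e-05).

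At the 3′ end the next base was A in 7.18 ± 0.931% of PANDORA-seq reads and in 31.4 ± 4.503% of traditional-seq reads (adjusted p = 1.33e-05). A makes up 22.7% of 18S bases. The 12.5% of traditional-seq reads that end at the single site nt 1792 are followed by A and count in the 31.4%. The share without this site was not computed. Of 16 comparisons of a base at an end, 15 passed and 1 did not, G as the first base (24.8% against 25.6%, adjusted p = 0.477). C before the 5′ end passed narrowly (33.5% against 28.98%, adjusted p = 0.0451). Across the 5′ end, a pyrimidine followed by A was found in 31.7 ± 10.2% of PANDORA-seq reads and 8.13 ± 1.06% of traditional-seq reads, and across the 3′ end in 4.13 ± 0.446% and 23.8 ± 5.19%. Such a pair makes up 9.31% of the dinucleotides of 18S. In traditional-seq the 12.5% of reads that end at nt 1792, between T and A, also count in the last of these shares.

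**Figure D4:**
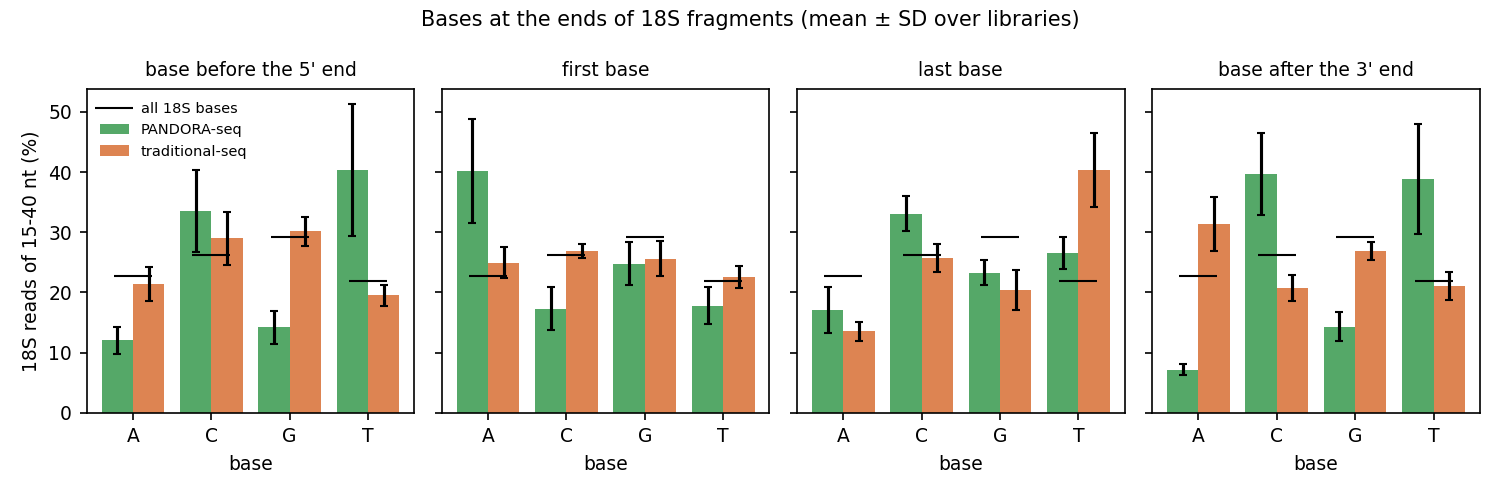
Percent of 18S reads of 15 to 40 nt (vertical axis) with each base before the 5′ end, at the first and last position and after the 3′ end, as mean ± SD over libraries of each protocol, with the composition of 18S for reference. T precedes and A starts the read more often in PANDORA-seq (40.3% and 40.1%), and A follows the read more often in traditional-seq (31.4%).

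Both ends of mature 18S were read, but not equally. Reads starting at the first base had 87.9 ± 38.7 RPM in PANDORA-seq (25.3 to 151 RPM) and 21.2 ± 13.3 RPM in traditional-seq (2.29 to 45.1 RPM). Reads ending at the last base had 8.37 ± 4.65 RPM in traditional-seq, where all 14 libraries held them, and 0.00595 ± 0.0147 RPM in PANDORA-seq, where 3 of 16 libraries held any. PANDORA-seq reads ended instead 1 nt earlier, at nt 1848 (3.57 ± 1.49 RPM), and at nt 1844 (3.71 ± 2.80 RPM). Traditional-seq had 0.570 RPM and 0.0131 RPM at those 2 ends.

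By RPM, 10 of 19 windows were lower in AD mice for reads of 43 to 45 nt and 0 of 19 differed for reads of 15 to 40 nt (exact permutation tests, Benjamini-Hochberg over 19 windows). The smallest adjusted p among the short windows was 0.236, at nt 401 to 500, where unadjusted p was 0.012432. Among the long windows the mean at nt 1501 to 1600 was 5104 ± 2506 RPM in WT and 836 ± 928 RPM in AD mice, a 6.11-fold difference (log2 difference -3.19, adjusted p = 0.00517). Without AD replicate 6 it was 9.15-fold. By exact match, WT had 127 RPM and AD mice 29.99 RPM at nt 1701 to 1800 (log2 difference -2.94, adjusted p = 0.00517). Without AD replicate 6 the AD mean there was 14.4 RPM. This window holds nt 1758, where exact matching drops nearly all reads. With the substituted bases added, long reads that start at nt 1748 alone had 235 ± 178 RPM in WT and 132 ± 129 RPM in AD mice. Their log2 difference was -0.92 (exact permutation p = 0.131), so the exact-match fold does not cover all long reads of this window. The count of long windows that differed stayed at 10. In the window ending at nt 300 the genotypes had 316 and 321 RPM (adjusted p = 0.854), and at nt 1201 to 1300 AD mice had 1025 RPM and WT 580 RPM (adjusted p = 0.501), with an AD mean of 563 RPM without AD replicate 7.

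As percent of the long 18S reads, which takes out the level of the class, 4 of 19 long windows differed. The count by RPM also moved when AD replicate 6 was left out, to 16 windows.

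The long 5′ end at nt 1514, the strongest over all 16 libraries and in WT mice, separated the genotypes. Its reads had 3330 ± 1728 RPM in WT mice, with a lowest, median and highest library of 1471, 3113 and 6768 RPM. In AD mice they had 364 ± 498 RPM, with 37.9, 152 and 1427 RPM. Their AD mean was below those at nt 951 (475 RPM) and nt 1201 (674 RPM). The order against nt 1201 rests on AD replicate 7, without which the AD mean at nt 1201 was 246 RPM. Every AD library lay below every WT library, with AD replicate 6 the closest at 1427 RPM and AD replicate 1 next at 789 RPM. The WT mean was 9.15-fold the AD mean (log2 difference -4.21, exact permutation p = 0.0001554, the smallest that 8 against 8 can give, adjusted p = 0.00155 over 10 hot spots). The fold is a ratio of mean RPM, while the log2 difference is between means of log2 values, in which the highest libraries weigh less. Without AD replicate 6 the AD mean was 212 ± 271 RPM (n = 7), and the WT mean was 15.7-fold as high (log2 difference -4.66, exact permutation p = 0.0001554).

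Of the 10 hot spots of PANDORA-seq, 5 short and 5 long, nt 1514 was the 1 that passed. The other long sites had adjusted p from 0.339 to 0.832. Reads from nt 951 had 495 ± 203.8 RPM in WT and 475 ± 236 RPM in AD mice. Reads from nt 1260 had 227 ± 88.1 and 262 ± 136 RPM, and those from nt 1368 had 114 ± 84.96 and 68.1 ± 63.9 RPM. Reads from nt 1201 had 204.5 ± 262 RPM in WT and 674 ± 1223 RPM in AD mice, of which AD replicate 7 alone had 3669 RPM, and without it the AD mean was 246 ± 189 RPM (n = 7).

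As percent of the long 18S reads, nt 1514 fell by 26.2 points in AD mice, and nt 951 and nt 1260 rose by 8.15 and 5.37 points (exact permutation p = 0.0001554 and adjusted p = 0.000518 each). These are shares of 1 total and are not independent of each other.

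Short reads that start at nt 1514 had 317 ± 122 RPM in WT and 380 ± 156 RPM in AD mice, and short reads that start at nt 1513 had 591 ± 305 and 950 ± 769 RPM (exact permutation p = 0.247, adjusted p = 0.339 for nt 1513). Long reads that start within 5 nt of nt 1514 had 4996 ± 2465 RPM in WT and 714 ± 826 RPM in AD mice, or 7.00-fold (10.6-fold without AD replicate 6). All other long 18S reads had 4461 ± 1408 and 3077 ± 1730 RPM, or 1.45-fold. The long reads at nt 1514 mostly ended at nt 1557 (66.5%), so that they enclose the short fragment from nt 1513 to nt 1536 except for its first base.

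**Figure D5:**
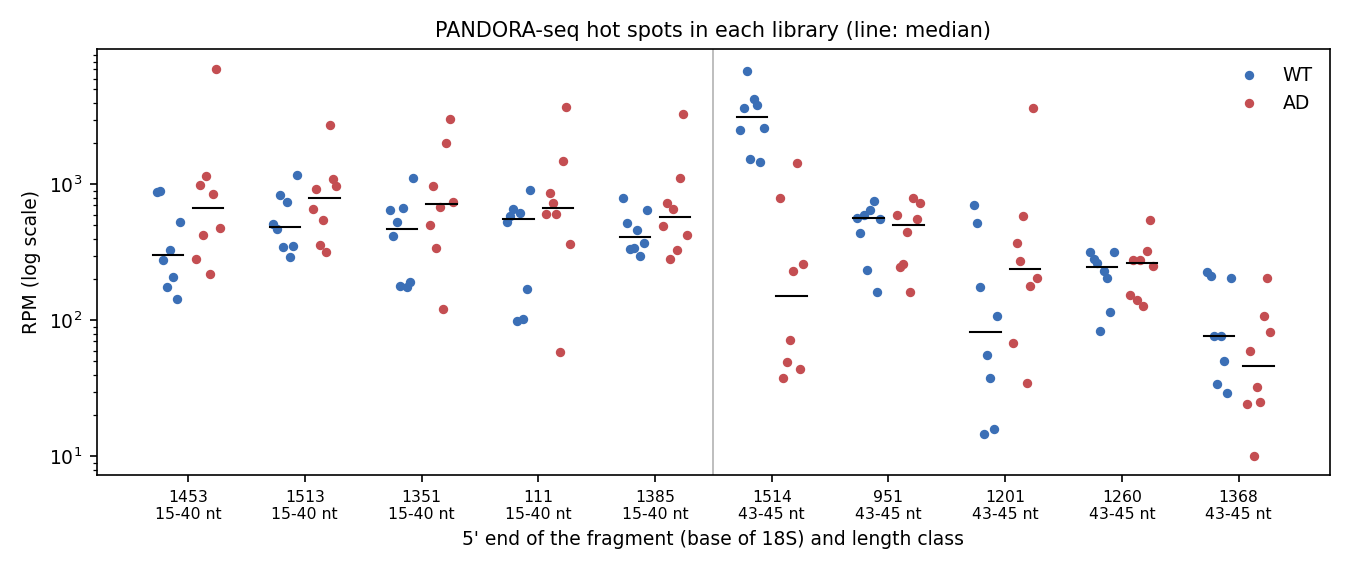
RPM per library on a log axis (points, with a line at the group median) at the 5 short and 5 long hot spots of PANDORA-seq, by genotype. AD and WT libraries overlap at every site but nt 1514 of the long class, where AD libraries reach at most 1427 RPM and WT libraries start at 1471 RPM.

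Single sequences were compared in 1 fit over all distinct sequences of a protocol, whatever their origin, by edgeR (quasi-likelihood). A call needed more than a 2-fold change with adjusted p below 0.05. In PANDORA-seq, 198 of 13941 tested 18S sequences were called lower in AD mice, or 1.42%, beside 1.88% of all 188718 sequences. Called higher were 2 of 13941 18S sequences, beside 0.0403% of all sequences. By length, 193 of the 198 lower sequences were of 43 to 45 nt, or 16.2% of 1191 tested 18S sequences of that length, beside 19.7% of all sequences of 43 to 45 nt. These shares of 18S were near or below the background. The count of 198 became 497 without AD replicate 6 and 344 without AD replicate 5. The share of all sequences called was not counted in fits without a library. The count of 2 became 0 without WT replicate 2, 4, 5, 6 or 7, stayed at 2 without AD replicate 1 or 3, and ran from 3 to 37 without each of the other libraries, with 37 without AD replicate 5. In traditional-seq 0 of 1403 18S sequences were called, and 0% of all 24841 sequences, by edgeR's quasi-likelihood test, and none of the 18S sequences had an unadjusted p under 0.05, with 0 called by the likelihood ratio test and by DESeq2 as well.

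The median log2 fold change, AD over WT, of 18S sequences was 0.36 at 15 to 40 nt, -0.08 at 41 to 42 nt and -1.09 at 43 to 45 nt. Over all sequences tested the medians were 0.14, -0.32 and -1.30. The medians at 43 to 45 nt were -1.72 for 5S, -2.15 for 12S and -2.19 for 16S rRNA. When each library was scaled at each length by its own reads of that length, the medians of 18S became 0.18 at 15 to 40 nt and 0.08 at 43 to 45 nt, and 38 of 1191 long 18S sequences were called lower (3.19%) and 151 higher (12.7%), beside 5.4% and 9.17% of all sequences of that length. At 15 to 40 nt, 10 of 11778 18S sequences were then called lower and 0 higher, beside 64 lower and 28 higher of all 155036 sequences of that length. With this scaling and all lengths together, 48 18S sequences were called lower and 151 higher. A fit of reads of 43 to 45 nt alone called 214 lower and 292 higher. The share of all sequences called was not counted for that fit or for all lengths together. With scaling at each length, 41 of the 198 sequences remained called lower.

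The called long sequences were spread over 18S. The window at nt 1301 to 1400 held 49 of them, of 156 tested, and that at nt 601 to 700 held 32 of 99. The window at nt 1501 to 1600, with the most long 18S reads over all 16 libraries, held 9 of 92, and that ending at nt 300 held 1 of 106. In AD mice nt 1501 to 1600 had fewer long reads than nt 1201 to 1300 (836 against 1025 RPM). This order rests on AD replicate 7, without which nt 1201 to 1300 had 563 RPM. The 44-nt sequence from nt 1514 had 2154 ± 1077 RPM in WT and 303 ± 401 RPM in AD mice (191 ± 264 RPM without AD replicate 6) and was called (log2 fold change -2.83, SE 0.73, edgeR quasi-likelihood adjusted p = 0.0483).

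The 18S sequence with the smallest adjusted p, a rare one, is shown with the 18S sequence on either side in lower case:
nt 664 to 708, chr17:39847016-39847060: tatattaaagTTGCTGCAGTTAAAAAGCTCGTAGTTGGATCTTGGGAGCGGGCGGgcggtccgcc
It had 0.469 ± 0.309 RPM in WT (0.135 to 1.01 RPM) and 0.00466 ± 0.00644 RPM in AD mice (0 to 0.0131 RPM), without overlap (log2 fold change -6.20, SE 0.69, edgeR quasi-likelihood adjusted p = 8.24e-05). It passed the filter on low counts (0.121 RPM in at least 8 libraries) through the 8 WT libraries alone, so a lower AD level was fixed by how it entered the test. The fitted size rests on AD libraries at or near 0 reads. Of the 198 sequences called lower, 15 had no AD library at the level of the filter, all of 43 to 45 nt.

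At 15 to 40 nt, 5 of 11778 18S sequences were called lower, or 0.0425%, beside 0.0271% of all sequences of that length, and 4 of the 5 overlap one another near nt 1185. A fit of reads of 15 to 40 nt alone called 0 lower and 0 higher. They were singled out after their values were seen. The longest of the 4 had the smallest adjusted p and is shown in the same way:
nt 1184 to 1207, chr17:39847536-39847559: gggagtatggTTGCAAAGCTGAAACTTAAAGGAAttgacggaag
It had 0.846 ± 0.264 RPM in WT (0.466 to 1.33 RPM) and 0.261 ± 0.141 RPM in AD mice (0.127 to 0.571 RPM), with overlap (log2 fold change -1.70, SE 0.36, edgeR quasi-likelihood adjusted p = 0.0128). The fifth, nt 1591 to 1623, had a log2 fold change of -1.39 (edgeR quasi-likelihood adjusted p = 0.0313). The 2 sequences called higher, beside 0.0464% of all sequences of 15 to 40 nt, were of low abundance, a 25-nt sequence from nt 404 with 0.220 RPM in WT and 0.740 RPM in AD mice (log2 fold change 1.84, edgeR quasi-likelihood adjusted p = 0.0359) and a 15-nt sequence from nt 1163 with 0.138 and 0.392 RPM (log2 fold change 1.54, edgeR quasi-likelihood adjusted p = 0.0437).

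Beyond the end of 18S, reads were few. Reads across the 3′ end of 18S had 26.2 ± 10.1 RPM in PANDORA-seq (12.8 to 47.3 RPM) and 1.69 ± 1.17 RPM in traditional-seq (0.689 to 4.96 RPM). Reads wholly in the next 587 nt, chr17:39848202-39848788, had 246 ± 144 RPM and 11.4 ± 6.26 RPM. This stretch continues the plus strand into Gm42418, at the place of internal transcribed spacer 1 in the precursor. The most abundant fragment across the end in PANDORA-seq, shown with 18S sequence upstream in lower case, started on the last base of 18S:
nt 1849 to 1876, chr17:39848201-39848228: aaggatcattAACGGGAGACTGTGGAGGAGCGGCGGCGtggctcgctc
It had 3.69 ± 4.14 RPM in PANDORA-seq and was in no traditional-seq library. WT and AD mice had 3.34 and 4.05 RPM (log2 fold change 0.50, SE 0.74, edgeR quasi-likelihood adjusted p = 0.883).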

How the data were processed

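Small RNA of mouse cortex was sequenced in 16 PANDORA-seq and 14 traditional-seq libraries. The authors trimmed the reads and deposited raw read counts for each distinct sequence, with its length and without annotation. Their methods name SPORTS1.1, and the submitters' processing notes name the build mm39. Positions here are those of GRCm38, since the 18S sequence was read from that build and each deposited sequence was matched to it base for base, without conversion of coordinates.

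Levels are RPM, the per-million count over all reads of a library, compared as log2(RPM + 1) with two-sided exact permutation tests over libraries (12870 splits for 8 against 8 with a smallest p of 0.0001554, 3432 for 7 against 7 with a smallest p of 0.000583). Protocols were compared with 100000 resamples. Adjustment was by Benjamini-Hochberg. Distinct sequences were tested with edgeR 4.0.16 (TMM, filterByExpr with a minimum count of 10 and a minimum total of 15, quasi-likelihood test) in R 4.3.3, with DESeq2 1.42.0 as an alternative, after the code was tested on simulated data. Hot spots were the 5 positions with the highest mean RPM of 5′ ends per protocol and length class, at least 10 nt apart, and their most abundant sequences were named, with the 18S sequences of smallest adjusted p and those at the first and last base of 18S.

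Other denominators, pseudocounts, lengths, mismatch settings, windows, filters, normalizations, a replicate block and leaving out each library were tried. Members and lists were chosen with earlier results of these data known. The study's captions count as many mice per group as there are libraries (8 in PANDORA-seq, 7 in traditional-seq), so each library was taken as 1 mouse. Reads without molecular identifiers are not independent molecules.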

Additional observations from a re-analysis of the deposited data

Results flagged for a closer look

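Of 36 groups of libraries tested, at hot spots and for the 18S levels, 7 had 1 library far from the others, all at hot spots. Chance gives about 1 in 20 groups where groups are not chosen by their values, but hot spots were chosen by mean RPM, which 1 high library raises, so this rate is no comparison for them. In 5 of the 7 it was the same library, so these are not independent. In PANDORA-seq, AD replicate 7 stood apart at nt 1453 (7107 RPM against 219 to 1161 RPM in the other AD libraries). It also stood apart at nt 111 (3689 against 58.2 to 1494 RPM) and at nt 1385 (3320 against 285 to 1108 RPM). Among long reads it stood apart at nt 1201 (3669 against 34.4 to 586 RPM) and at nt 1260 (548 against 129 to 322 RPM). AD replicate 6 stood apart at nt 1513 (2718 against 321 to 1100 RPM). In traditional-seq, WT replicate 6 stood apart at nt 1764 (1498 against 91.7 to 604 RPM).

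The genotype difference of long 18S reads differed from that of short 18S reads in PANDORA-seq by -1.75 on the log2 scale (exact permutation test, two-sided, p = 0.0001554, the smallest possible). With each class taken as a share of all reads of its length, the same contrast was 0.27 (exact permutation p = 0.232).

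Reads downstream of 18S, outside the 18S comparisons, had 246 RPM in PANDORA-seq and 11.4 RPM in traditional-seq. There were no control libraries for this stretch.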

How the results depend on the processing

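The level of 18S reads of 43 to 45 nt reversed, from -1.42 to 0.40 on the log2 scale, with reads of the same length class as denominator. As percent of the 18S reads of a length class, 4 long windows and 3 hot spots differed between genotypes, against 10 and 1 by RPM. With windows of 200 nt, 6 of 10 differed between protocols. The 198 lower and 2 higher 18S sequences became 353 and 55 with the likelihood ratio test, 405 and 84 with DESeq2, 130 and 4 with a minimum count of 50, and 461 and 18 without the filter. They became 0 and 0 when reads of 15 to 40 nt were fitted alone, 48 and 151 when scaled at each length, 214 and 292 when 43 to 45 nt was fitted alone, and 172 and 1 with library size alone. All 198 remained called with the likelihood ratio test, DESeq2 and no filter, 87 with a minimum count of 50. Causes of these changes were not tested. Apart from sequences of 15 to 40 nt and of 43 to 45 nt in the fit scaled at each length, all sequences called were not counted in these settings. Nor were they counted with a library left out or with the replicate block. The size of these counts therefore does not show whether 18S stands out from all sequences. Of 86 values under alternatives other than leaving out a library, 65 kept their direction and side of the threshold, or stayed within 1.5 times for counts.

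Leaving out each library in turn gave 9 to 16 long windows (16 without AD replicate 6), 138 to 497 sequences called lower (497 without AD replicate 6, 344 without AD replicate 5) and 0 to 37 called higher (37 without AD replicate 5). The leave-one-out checks of windows and hot spots, the corrected bases, the downstream stretch and each genotype alone were chosen after seeing the data.

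Replicate numbers showed no pairing of the libraries by correlation, which cannot exclude a pairing, and the labels do not say what the numbers stand for. The correlation of deviations between libraries with the same number ran from -0.536 to 0.393 in PANDORA-seq and from -0.424 to 0.527 in traditional-seq, and a library correlated best with its own number in 0 of 8 and 1 of 7. With the replicate number as a block, 0 hot spots differed, which the design fixes: the smallest exact p of 8 pairs, 0.00781, is 0.0781 after adjustment over 10 hot spots if 1 differs. By sign flips within pairs, 7 long windows differed, and the exact sign-flip p of the long class was 0.0234. With the number in the edgeR design, 357 18S sequences were called lower and 6 higher. In traditional-seq, with 9370669 to 17053412 reads, a smaller share of 18S reads and no reads over 42 nt, 1403 18S sequences passed the filter, against 13941 in PANDORA-seq, and the part of each was not tested.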
